A study of Mus musculus with 36 samples.

Results

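Mouse embryonic gut that carried no appreciable Ret RNA was compared between embryonic stages E12.5 and E10.5 (days after conception). The libraries were chosen by 2 criteria, a label of Ret null and a Ret level under 1 FPKM (the deposited unit, in which a gene's fragments are divided by transcript length and by library depth), which 8 of the 36 libraries of the series met at these stages. They are 5 libraries at E12.5 (females 1, 2 and 3 and males 1 and 3, by their labels) and 3 at E10.5 (males 1, 2 and 3). The study measured RNA from dissected gut of wild-type and Ret null embryos of both sexes at 3 stages, the last being E14.5, with 6 wild-type libraries at E12.5 and 6 at E10.5 used here beside the 8. The strain given for all of them is C57BL/6J. The sources used here do not give the null allele, the number of embryos in a library or the stretch of gut that was taken. Nothing in the labels ties each library to an embryo of its own, so the p-values below measure the spread between these libraries, which may be technical.

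Ret encodes the receptor tyrosine kinase that binds GDNF through the co-receptor Gfra1, and neural crest cells need it to colonise the gut and form the enteric nervous system. Between these stages the gut tube grows, its mesenchyme differentiates into smooth muscle, and endoderm signals to mesenchyme through hedgehog ligands that switch on target genes such as Gli1. Hox genes mark position along the body axis, and their transcripts in gut mesenchyme follow the order of the segments from foregut to hindgut.

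The libraries were set apart by Ret itself, which is a description of the choice. Ret stood at 0.0263, 0.0451, 0.0301, 0.0218 and 0.0151 FPKM in E12.5 females 1, 2 and 3 and males 1 and 3, and at 0.0217, 0.0509 and 0.0123 FPKM in E10.5 males 1, 2 and 3. Over all stages 11 of the 18 libraries labelled null fell under the limit, the highest at 0.0587 FPKM, and the lowest of the others held 4.74 FPKM. In wild type Ret was 8.89 to 13.3 FPKM at E12.5 and 2.11 to 7.34 FPKM at E10.5.

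Several features moved with the stage or set single libraries apart. Sequencing depth, estimated from the width of the deposited intervals, was 23.6 to 55.1 M fragments at E12.5 and 8.99 to 10.6 M at E10.5, so depth and stage cannot be told apart. Labelled sex was partly confounded with stage, since every E10.5 library was labelled male and the E12.5 libraries were of both sexes. E10.5 male 1 held Xist at 66.1 FPKM and Ddx3y at 0, against its label, and the other 7 matched theirs. In wild type, E12.5 females 1 and 2 held both Xist and Ddx3y RNA. They and 2 other pairs of wild-type libraries (E10.5 females 1 and 2, E10.5 males 3 and 4) differed by little more than sampling noise and were counted as 1 sample each, which leaves 5 wild-type samples at E12.5 and 4 at E10.5.

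The labelled tissue was checked against its markers. Foxf1, a forkhead factor of gut mesenchyme, was 46.1 to 96.7 FPKM at E12.5 and 74.3 to 123 FPKM at E10.5, and Cdx2, a homeobox factor of intestinal epithelium, 6.09 to 11.5 FPKM and 9.10 to 10.3 FPKM, so gut RNA was present in all 8 libraries. Barx1, a transcription factor of stomach mesenchyme, stood at 106, 1.10, 1.12, 75.1 and 97.2 FPKM in E12.5 females 1, 2 and 3 and males 1 and 3, against 80.9, 68.7 and 110 FPKM in E10.5 males 1, 2 and 3. Females 2 and 3 at E12.5 therefore held little of the Barx1 RNA that the other 6 had, and Cym, a milk-clotting protease of the stomach, gave the same split (0.379 and 0.279 FPKM in E12.5 females 2 and 3, at least 8.99 in the rest). In wild-type libraries Barx1 was 0.229 to 164 FPKM at E12.5 and 0.651 to 38.3 FPKM at E10.5, and Cym 0.297 to 21.0 FPKM and 0.0793 to 0.433 FPKM. For both stomach genes every E10.5 library lacking Ret was thus above every wild-type E10.5 library. The same 2 libraries had the most liver RNA: Alb, serum albumin, was 274 and 267 FPKM there, 38.7, 26.3 and 0.596 FPKM in E12.5 female 1 and males 1 and 3, and 0.612, 78.6 and 95.2 FPKM in the E10.5 males. Of the 8 tested stomach genes and the 13 tested liver genes 0 were called between stages, beside 7.5% of all genes tested. Their log2 fold changes had medians of -0.61 for stomach and 0.40 for liver. In a bulk sample, fewer cells of a type and less RNA per cell cannot be told apart.

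Neural RNA lay below wild type at E12.5 but was not absent, and it varied within each stage. Tubb3, a tubulin of neurons, was 1.21, 10.1, 12.4, 5.59 and 0.593 FPKM in E12.5 females 1, 2 and 3 and males 1 and 3, against 6.598, 9.54 and 0.699 FPKM in E10.5 males 1, 2 and 3. Elavl4, an RNA-binding protein of neurons, was 0.556, 2.10, 1.74, 1.02 and 0.522 FPKM at E12.5 and 1.09, 1.82 and 0.928 FPKM at E10.5. The stages overlapped for both genes, and E12.5 female 1, E12.5 male 3 and E10.5 male 3 were the low libraries in each case. Wild type held 21.3 to 44.2 FPKM of Tubb3 at E12.5 and 3.86 to 25.1 FPKM at E10.5. Sox10, a transcription factor of neural crest progenitors and glia, ranged from 1.07 to 3.11 FPKM at E12.5 lacking Ret and from 0.798 to 3.86 FPKM at E10.5 lacking Ret.

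**Figure D1:**
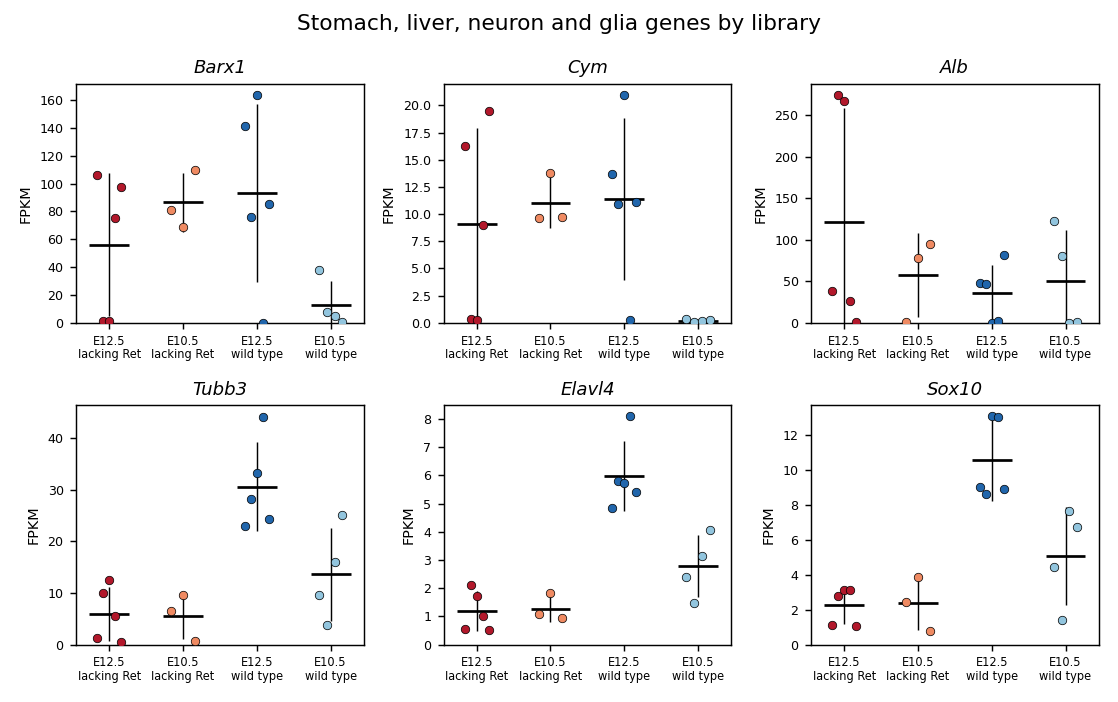
Levels in FPKM (vertical axes, linear and starting at 0) of 6 genes of stomach (Barx1, Cym), liver (Alb), neurons (Tubb3, Elavl4) and glia (Sox10) in gut lacking Ret RNA and in wild-type gut at E12.5 and E10.5. Each point is a sample (a library, or the mean of a close pair in wild type), horizontal lines are means and vertical lines SD; Barx1 is near 0 in 2 of the 5 E12.5 libraries lacking Ret and at least 68.7 FPKM in the other 6 libraries lacking Ret, and at most 38.3 FPKM in wild type at E10.5.

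Of 13075 genes tested with limma on log2(FPKM + 1), 981 were called at an adjusted p under 0.05 (7.5% of those tested). Of these 306 were higher at E12.5 (2.34%) and 675 lower (5.16%), and the split was 352 higher and 462 lower with libraries scaled to a common median and 206 higher and 635 lower with libraries scaled to TPM. The median size among called genes was 0.32 on the log2 scale, and 16 passed a log2 of 1, of which 13 were higher and 3 lower. Values of the groups did not overlap for 8.09% of genes in the direction of E12.5 higher and for 1628 of the 13075 genes in the direction of E12.5 lower. The count rested on single libraries. It fell to 5 without E10.5 male 1, whose Xist goes against its label, to 374 without E10.5 male 2 and to 175 without E10.5 male 3. It was 454 without E12.5 female 1, 564 without E12.5 male 1 and 308 without E12.5 male 3. Without E10.5 male 1, 977 of the 981 called genes could be tested. All 977 kept their direction and an unadjusted p under 0.05 in limma, but they had been chosen with that library included. With labelled sex as a term 4 genes were called. Since no E10.5 library is labelled female, the stage change in that fit rests on the labelled males, E10.5 male 1 among them. With sex read from Xist as a term, added after seeing the data, 324 were called.

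Among called genes that averaged at least 5 FPKM in the higher group and whose groups did not overlap, the 10 largest rises were followed up, leaving out predicted, sex-linked and small RNA genes and names with more than 1 entry. Zbed6, a zinc finger transcription factor gene that lies within another gene and may share its reads, was 8.11, 9.20, 7.31, 9.25 and 10.51 FPKM in the 5 E12.5 libraries and 1.79, 2.85 and 0.720 FPKM in the 3 E10.5 libraries. It rose by a log2 of 1.89 (SE 0.23, adjusted p = 0.00882 in limma), and every E12.5 value lay above every E10.5 value. Akr1e1, an aldo-keto reductase, was 14.8, 15.8, 14.7, 14.8 and 14.6 FPKM against 8.66, 6.40 and 6.99 FPKM (log2 0.94, SE 0.08, adjusted p = 0.00456). Mib1, the ubiquitin ligase that activates Notch ligands by endocytosis, averaged 9.59 ± 0.250 FPKM at E12.5 (SD, n = 5) and 4.57 ± 1.14 FPKM at E10.5 (SD, n = 3), a log2 change of 0.95. Bmpr2, a type II receptor for Bmp ligands, averaged 5.73 ± 0.283 and 2.73 ± 0.789 FPKM at E12.5 and E10.5 (0.87, adjusted p = 0.0117). Xpo4, a nuclear transport receptor (0.89), Hipk2, a kinase (0.82), Eif2c2, the Argonaute protein that cleaves microRNA targets (0.77), N4bp2 (0.75), Zim1 (0.85) and Lgals2, a galectin of the epithelium (0.996), made up the rest. In wild type Lgals2 was called higher (log2 2.23) and Zim1 lower (-1.01), and none of the others was called. Zbed6, Mib1 and Akr1e1 averaged 9.79, 10.1 and 14.9 FPKM in wild type at E12.5 and 12.9, 12.1 and 15.0 FPKM at E10.5. For these genes the low group was thus the E10.5 libraries lacking Ret. Of the 10 calls lacking Ret, 1 remained without E10.5 male 1 (Akr1e1, adjusted p = 0.00202), 8 without E10.5 male 2, 7 without E10.5 male 3 or without E12.5 male 3, 8 without E12.5 female 2 or 3 and 9 without E12.5 male 1. Cbl, a ubiquitin ligase for receptor tyrosine kinases, averaged 4.71 ± 0.403 FPKM at E12.5 and 1.35 ± 0.636 FPKM at E10.5 and rose by 1.32 (adjusted p = 0.00882, lost without E10.5 male 1).

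The 10 largest falls, by the same limits, were followed up likewise. Vprbp, the substrate receptor of a cullin ubiquitin ligase, was 24.3, 23.1, 23.1, 26.4 and 24.0 FPKM at E12.5 against 40.8, 48.1 and 42.7 FPKM at E10.5, with no overlap. It fell by 0.83 on the log2 scale (SE 0.07, adjusted p = 0.00281) and was also called as lower in wild type (-0.59, adjusted p = 0.000997). Slc1a5, a glutamine transporter, averaged 11.2 ± 1.55 FPKM at E12.5 and 18.8 ± 2.65 FPKM at E10.5 (-0.70). Mbd6, of the methyl-CpG-binding domain family (-0.72), Lmtk3, a kinase (-0.71), Clcn6, a chloride and proton exchanger of endosomes (-0.70), Hoxd3 (-0.69) and Gli1 (-0.68) fell as well. The remaining 3 of the 10 largest falls were histone H2A genes (Hist1h2ai, Hist1h2an and Hist1h2ah, -0.70, -0.69 and -0.68). In all, 12 of 45 tested Hist1h entries were called lower and 0 higher (5.16% and 2.34% of all genes), with a median of -0.32 against -0.11 in wild type. These messages end without a poly(A) tail and closely related copies share reads, while the RNA was selected with oligo dT beads; the part of that selection was not tested. Of the 10 calls, 1 remained without E10.5 male 1 (Vprbp, adjusted p = 0.0120), 5 without E10.5 male 2 and 7 without E10.5 male 3. Leaving out E12.5 male 1 kept 8 of them, and leaving out E12.5 female 2, female 3 or male 3 kept 9 each. In wild type only Vprbp of the 10 was called. Mbd6 averaged 21.9 and 24.0 FPKM in wild type at E12.5 and E10.5, against 22.2 and 37.1 FPKM lacking Ret. Clcn6 averaged 5.08 and 5.22 FPKM in wild type, against 4.38 and 7.69 FPKM lacking Ret.

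Transcript length moved with the direction of change. The longest coding transcript had a median of 6780 bases in genes called higher, 3314 bases in genes called lower and 3151 bases in all genes tested with a length. Among the 1195 longest genes, from 6698 bases, 138 were called higher and 50 lower, with a median log2 change of 0.11 against -0.04 in wild type. Over all genes tested 2.34% were called higher and 5.16% lower. The part of length and depth in this pattern was not tested.

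Genes called between the stages in wild type, and so chosen by their wild-type values, had smaller median changes lacking Ret. Between E12.5 and E10.5 in wild type 832 of 13479 genes were called (6.17%), 479 higher (3.55%) and 353 lower (2.62%). The 455 wild-type risers also tested lacking Ret had a median log2 change of 0.04 there against 0.54 in wild type. Lacking Ret, 14 of them were called higher (3.08%) and 2 lower, and 59.6% had the same sign. The 319 wild-type fallers also tested lacking Ret had medians of -0.09 there and -0.47 in wild type. Lacking Ret, 30 of them were called lower (9.40%) and 3 higher, and 69.3% had the same sign. Of all 13075 genes tested lacking Ret, 2.34% were called higher and 5.16% lower, and 6709 had a positive and 6366 a negative change. The genes called higher in both sets made up 4.58% of those called lacking Ret and 2.92% of those called in wild type, and for lower genes 4.44% and 8.50%. Across 13072 genes, which are not independent replicates, the 2 stage changes correlated with Pearson's r = 0.10 and Spearman's rho = 0.15.

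For these genes the E10.5 libraries lacking Ret lay between the wild-type stages. Mean log2(FPKM + 1) over the risers minus that over the fallers was 0.61, 0.28, 0.22, 0.25 and 0.83 in E12.5 females 1, 2 and 3 and males 1 and 3, and 0.16, 0.26 and 0.50 in E10.5 males 1, 2 and 3. Wild type spanned 0.57 to 0.93 at E12.5 and -0.91 to -0.49 at E10.5, so all 3 E10.5 libraries lacking Ret lay above every wild-type E10.5 library and below every wild-type E12.5 library. The stages overlapped lacking Ret and did not in wild type, where the genes were chosen for that difference. The next shares are over all 479 risers and 353 fallers called in wild type. The mean of the E12.5 libraries lacking Ret was nearer to the wild-type E12.5 than to the wild-type E10.5 mean for 86.4% of risers. For the mean of the E10.5 libraries lacking Ret it was 76.6%. For fallers the shares were 80.2% at E12.5 and 56.9% at E10.5. Genotype, the stretch of gut or other tissue in each library, and any difference in embryo age within a labelled stage cannot be told apart. Stomach genes differed between the E10.5 groups, as given above.

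**Figure D2:**
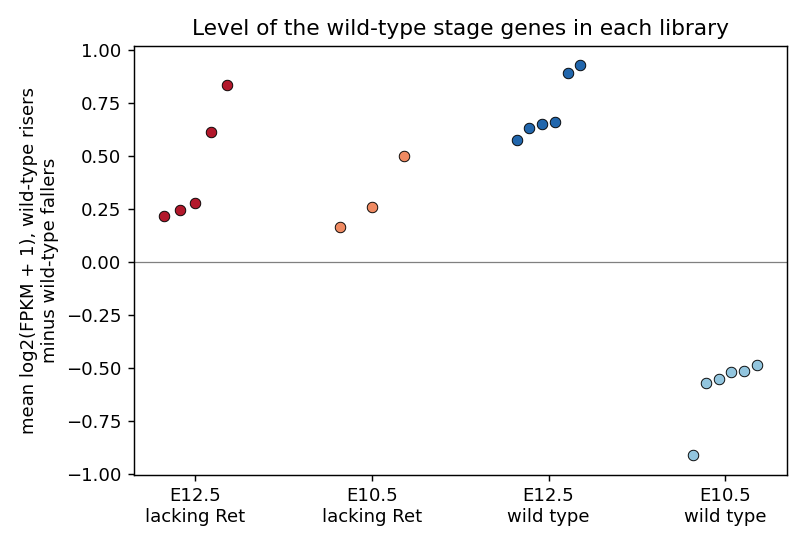
Difference between the mean log2(FPKM + 1) of genes called higher and of genes called lower at E12.5 in wild type (vertical axis, log2 units), for each library lacking Ret and each wild-type library (points) at E12.5 and E10.5. The 3 E10.5 libraries lacking Ret sit between 0.16 and 0.50, above all wild-type E10.5 libraries.

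The difference of the stage changes, lacking Ret minus wild type, was called for 139 of 13479 genes (1.03%), 70 higher (0.519%) and 69 lower (0.512%). The count was 5 without E10.5 male 1, 71 without E10.5 male 2 and 2 without E10.5 male 3, all lacking Ret. Without an E12.5 library lacking Ret it was 119 (female 1), 26 (female 2), 31 (female 3), 10 (male 1) or 208 (male 3). Leaving out wild-type samples gave 11 (E12.5 females 1 and 2), 4 (E12.5 male 1), 21 (E12.5 male 3) and 273 (E10.5 males 3 and 4). It was 108 to 165 without any other wild-type sample. With labelled sex as a term it was 2, and with every wild-type library counted 431. Stomach RNA moved with this comparison: the median difference of the stomach list was -1.55, with stage medians of -0.61 lacking Ret and 1.11 in wild type, although 0 of its members were called for the difference. The heart, skeletal muscle and urogenital lists had stage medians of 0.03, 0.10 and -0.20 lacking Ret and of -1.11, -1.16 and -1.18 in wild type. The part of RNA of other tissues in the differences below was not tested.

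Of the smooth muscle genes 1 passed the test lacking Ret. Myh11, the smooth muscle myosin heavy chain, was 26.2, 47.6, 54.0, 23.0 and 62.0 FPKM in E12.5 females 1, 2 and 3 and males 1 and 3, against 19.5, 35.4 and 18.6 FPKM at E10.5. The stages overlapped (log2 0.73, SE 0.36, adjusted p = 0.241), and wild type held 9.68 to 81.9 FPKM at E12.5 and 0.645 to 6.67 FPKM at E10.5 (2.58, adjusted p = 0.0109). Actg2, the enteric smooth muscle actin, averaged 129 ± 35.6 FPKM at E12.5 and 91.0 ± 13.4 FPKM at E10.5 lacking Ret (0.46, adjusted p = 0.228), and Mylk, myosin light chain kinase, 37.7 ± 9.02 and 32.4 ± 2.86 FPKM (0.19, adjusted p = 0.523). Their wild-type changes of 2.21 and 1.78 were called. For Myh11, Actg2 and Mylk the differences between the 2 stage changes were -1.85, -1.74 and -1.59, with adjusted p of 0.231, 0.231 and 0.122. Of 20 tested smooth muscle genes 1 rose and 0 fell, beside 2.34% and 5.16% of all genes. The gene that rose was Ppp1r12b, a regulatory subunit of myosin phosphatase (0.34, adjusted p = 0.0353). The list had a median of 0.19, against 0.01 over all genes tested. In wild type 9 of 19 rose, beside 3.55% of all genes there, with a median of 0.70. Myh11, Actg2 and Mylk were named after their values were seen.

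Mesenchyme regulators had a median below 0 lacking Ret and above 0 in wild type. Their mean log2(FPKM + 1) was 4.91, 4.04, 4.07, 4.72 and 4.83 in E12.5 females 1, 2 and 3 and males 1 and 3, and 4.895, 4.80 and 5.09 in E10.5 males 1, 2 and 3. The low libraries were E12.5 females 2 and 3, those with little Barx1, itself a member of the list, and the other 3 overlapped E10.5 in range. Of 18 tested 1 fell, Osr1, a zinc finger transcription factor of lateral mesoderm (20.8 ± 2.82 FPKM at E12.5, 27.9 ± 1.07 FPKM at E10.5, log2 -0.42, adjusted p = 0.0449), a call that ended with either other scaling. Over all genes 5.16% were called lower. The list had a median of -0.32, against 0.46 in wild type, where 4 of 18 rose, beside 3.55% of all genes. The difference was called for 3 of the 18, Foxl1, Foxf2 and Hand2, beside 0.512% of all genes with a lower difference called. Foxl1, a forkhead factor of the mesenchyme under the epithelium, was 4.19, 2.94, 3.08, 3.06 and 4.75 FPKM at E12.5 and 4.14, 5.53 and 4.70 FPKM at E10.5 lacking Ret. In wild type it was 3.23 to 4.96 FPKM and 0.525 to 2.10 FPKM, so that its E10.5 level lacking Ret overlapped wild-type E12.5 and not wild-type E10.5 (difference -1.44, SE 0.25, adjusted p = 0.0237). The difference was -1.53 for Foxf2, another forkhead factor, and -0.68 for Hand2, a basic helix-loop-helix factor (adjusted p = 0.0275 for both).

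Among epithelial genes Epcam, an adhesion protein of all gut epithelium, was 49.2, 46.5, 43.5, 38.4 and 68.4 FPKM at E12.5 and 43.5, 46.1 and 49.3 FPKM at E10.5 lacking Ret (0.06, adjusted p = 0.852). Wild-type samples held 38.4 to 61.5 FPKM at E12.5 and 17.3 to 21.8 FPKM at E10.5 (1.17, adjusted p = 0.000791), and the difference was -1.11 (SE 0.22, adjusted p = 0.0306). Klf5, a zinc finger factor of proliferating epithelium, averaged 7.65 ± 1.44 FPKM at E12.5 and 9.14 ± 0.544 FPKM at E10.5 lacking Ret, with a difference of -1.52 (adjusted p = 0.0168). Foxa1, a forkhead factor of endoderm, gave -1.41 (adjusted p = 0.0387). Of 17 tested junction genes 0 changed lacking Ret (median -0.08), while 8 of 18 rose and 1 fell in wild type (median 0.64). Of 17 epithelial transcription factors 1 fell, Tcf7l2, the effector of Wnt signalling in gut epithelium (10.47 ± 0.502 and 13.8 ± 0.367 FPKM at E12.5 and E10.5, -0.37, adjusted p = 0.0103). Over all genes 5.16% were called lower and 2.34% higher lacking Ret, and 2.62% lower and 3.55% higher in wild type. The 12 enterocyte genes had a median of 0.38, and their mean log2(FPKM + 1) was highest in E12.5 females 2 and 3 (3.21 and 3.25), against 2.15 to 2.45 in the other E12.5 libraries and 1.91 to 2.43 at E10.5. Among them 1 rose, Lgals2, at 21.5, 32.0, 35.5, 18.4 and 34.3 FPKM at E12.5 against 10.6, 15.8 and 13.9 FPKM at E10.5.

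Genes outside the lists also differed. Fxyd3, a regulator of the sodium pump in epithelia (difference -2.003), Tspan8, an epithelial tetraspanin (-1.84), and Pdlim3, a muscle scaffold protein (-1.65), were called higher at E12.5 in wild type and were not called lacking Ret. Dll1, a Notch ligand, averaged 4.13 ± 0.899 and 4.72 ± 0.618 FPKM at E12.5 and E10.5 lacking Ret, with a difference of -1.22 (adjusted p = 0.0275). Of the stage calls in smooth muscle, mesenchyme and epithelium (Ppp1r12b, Osr1, Tcf7l2 and Lgals2), 0 of 4 remained without E10.5 male 1, 1 without E10.5 male 2, E10.5 male 3 or E12.5 male 3, 2 without any 1 of the E12.5 females and 3 without E12.5 male 1. Of the 10 differences named for Epcam, Foxa1, Klf5, Foxf2, Hand2, Foxl1, Dll1, Fxyd3, Tspan8 and Pdlim3, 0 remained without E10.5 male 3 and 1 without E10.5 male 1, both lacking Ret. Another 6 remained without E10.5 male 2, 3 without E12.5 female 2 or 3 and 1 without E12.5 male 1 lacking Ret. Without wild-type E12.5 samples, 1 remained (females 1 and 2, or male 1), 3 (male 3) or 9 (male 2).

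**Figure D3:**
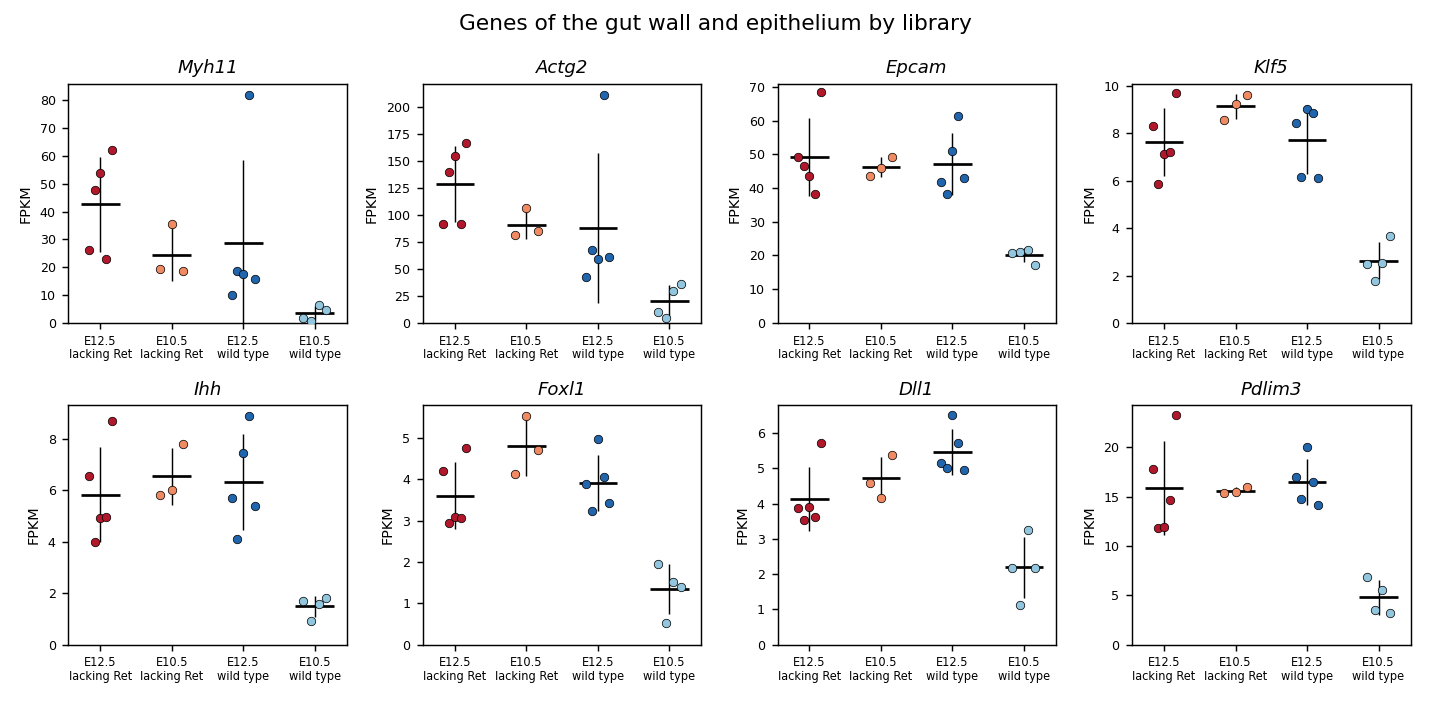
FPKM (vertical axes, linear and starting at 0) of 8 genes of smooth muscle, epithelium, mesenchyme and signalling in gut lacking Ret RNA and in wild-type gut, each at E12.5 and E10.5. Points are samples, horizontal lines means and vertical lines SD; for each gene the range of the E10.5 libraries lacking Ret overlaps that of the wild-type E12.5 samples and lies above that of the wild-type E10.5 samples.

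Among hedgehog pathway genes, both ligands gave no call and the target Gli1 fell. Ihh, the ligand secreted by intestinal epithelium, was 6.56, 3.999, 4.91, 4.98 and 8.68 FPKM at E12.5 against 5.83, 5.99 and 7.80 FPKM at E10.5 (-0.17, adjusted p = 0.642), and Shh averaged 15.8 ± 3.51 and 17.2 ± 2.32 FPKM (-0.13, adjusted p = 0.654). In wild type Ihh was 4.12 to 8.90 FPKM at E12.5 and 0.905 to 1.85 FPKM at E10.5, a difference of stage changes of -1.70 (SE 0.30, adjusted p = 0.0237). Gli1, a transcriptional activator of the pathway, was 30.4, 20.0, 21.7, 26.4 and 31.5 FPKM at E12.5 and 40.5, 39.5 and 45.1 FPKM at E10.5. It fell by 0.68 (SE 0.15, adjusted p = 0.0313), with no overlap, and the difference from the wild-type change of 0.28 was called (-0.96, adjusted p = 0.0390). The targets Ptch1 (0.00, adjusted p = 0.994) and Hhip (0.02, adjusted p = 0.965) gave no call. All 3 E10.5 values of Gli1 lacking Ret stood above wild type at either stage, where it was 22.9 to 31.5 FPKM at E12.5 and 16.9 to 26.3 FPKM at E10.5. Smo, the transmembrane transducer of the signal, averaged 53.7 ± 4.51 FPKM at E12.5 and 63.8 ± 2.97 FPKM at E10.5 (-0.25, adjusted p = 0.0740), and Gas1, a co-receptor for the ligands, 49.7 ± 3.62 and 48.4 ± 3.64 FPKM (0.04, adjusted p = 0.785). Of 13 tested pathway genes 1 fell and 0 rose, beside 5.16% and 2.34% of all genes, with a median of -0.03. The Gli1 call ended without any 1 of the E10.5 males or without E12.5 male 1. Of the differences of Ihh and Gli1, 0 remained without E10.5 male 1 or 3 or E12.5 male 1 lacking Ret, or without wild-type E12.5 females 1 and 2 or male 1; 1 remained without each of 7 other samples and both without the remaining 5.

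Calls in the lists of other signals are set beside the 2.34% of all genes called higher and the 5.16% called lower. In the Fgf list 3 of 12 fell and 0 rose, with a median of -0.21: the receptor Fgfr1 (29.4 ± 2.42 and 36.2 ± 1.60 FPKM at E12.5 and E10.5, log2 -0.29) and the targets Etv5 (-0.34, adjusted p = 0.0327) and Spry1, a feedback inhibitor (-0.29, adjusted p = 0.0479). Of 14 Notch genes 1 fell, the receptor Notch3 (-0.36, adjusted p = 0.0317), of 23 Wnt genes 1, the receptor Fzd2 (-0.24, adjusted p = 0.0392), and of 16 retinoid genes 1, the nuclear receptor Rxra (-0.24, adjusted p = 0.0401). Of 16 Bmp genes 1 rose, Bmpr2, and 0 fell. With libraries scaled to a common median 1 Fgf gene and 0 Wnt or retinoid genes were called. Of these 7 calls 0 remained without E10.5 male 1, 3 without E10.5 male 2 and 1 without E10.5 male 3 or E12.5 male 3. Another 2 remained without E12.5 female 1 or 2, 3 without female 3 and 6 without male 1.

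**Figure D4:**
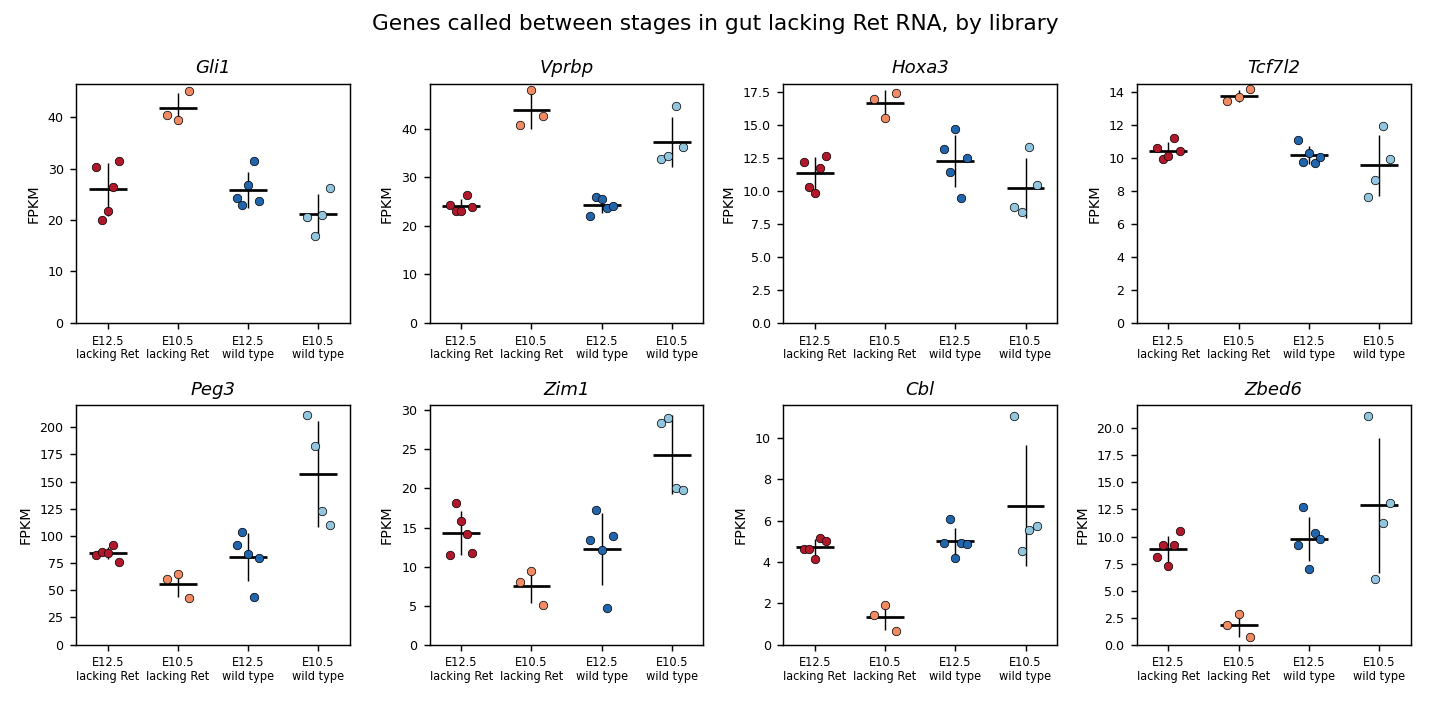
FPKM (vertical axes, linear and starting at 0) of 8 genes called between E12.5 and E10.5 in gut lacking Ret RNA, shown with wild type. Points are samples, horizontal lines means and vertical lines SD; Gli1, Vprbp, Hoxa3 and Tcf7l2 are lower and Peg3, Zim1, Cbl and Zbed6 higher in each E12.5 library than in each E10.5 library lacking Ret.

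Every tested Hox gene had a negative log2 change lacking Ret: 13 of 13 anterior, 8 of 8 middle and 12 of 12 posterior genes, with medians of -0.29, -0.27 and -0.43. Scaled to TPM, 1 of 14 tested anterior genes was positive. The Hox calls are set beside the 5.16% of all genes called lower. Hoxa3 was 12.2, 10.3, 9.87, 11.8 and 12.7 FPKM at E12.5 and 17.0, 15.6 and 17.5 FPKM at E10.5, with no overlap (-0.52, SE 0.09, adjusted p = 0.0145). Hoxd3 averaged 5.64 ± 1.13 FPKM at E12.5 (SD, n = 5) and 9.63 ± 0.874 FPKM at E10.5 (SD, n = 3). Those 2 and Hoxa5 (-0.43, adjusted p = 0.0498) fell among anterior genes, Hoxb8 (-0.65, adjusted p = 0.0441) among middle genes, and Hoxa10 (-0.45, adjusted p = 0.0243) and Hoxa11 (-0.41, adjusted p = 0.0471) among posterior genes. In wild type the medians were 0.39, -0.19 and -1.59, with 3 anterior genes higher and 1 lower, 2 middle genes lower and 5 posterior genes lower. Of all genes in wild type 3.55% were called higher and 2.62% lower. Hoxc10, a posterior gene named after its values were seen, ranged from 2.54 to 6.38 FPKM at E12.5 and from 3.53 to 6.47 FPKM at E10.5 lacking Ret, and in wild type held 0.181 to 4.71 FPKM and 5.14 to 24.9 FPKM. Of the 6 calls 0 remained without E10.5 male 1 or 3, 1 without E10.5 male 2, 4 without E12.5 female 1 and 3 without any other E12.5 library. The Hoxa5 and Hoxa11 calls ended with either other scaling and that of Hoxb8 with libraries scaled to TPM. Barx1 differed among the E12.5 libraries, and the part in these values of the gut region held by each library was not tested.

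**Figure D5:**
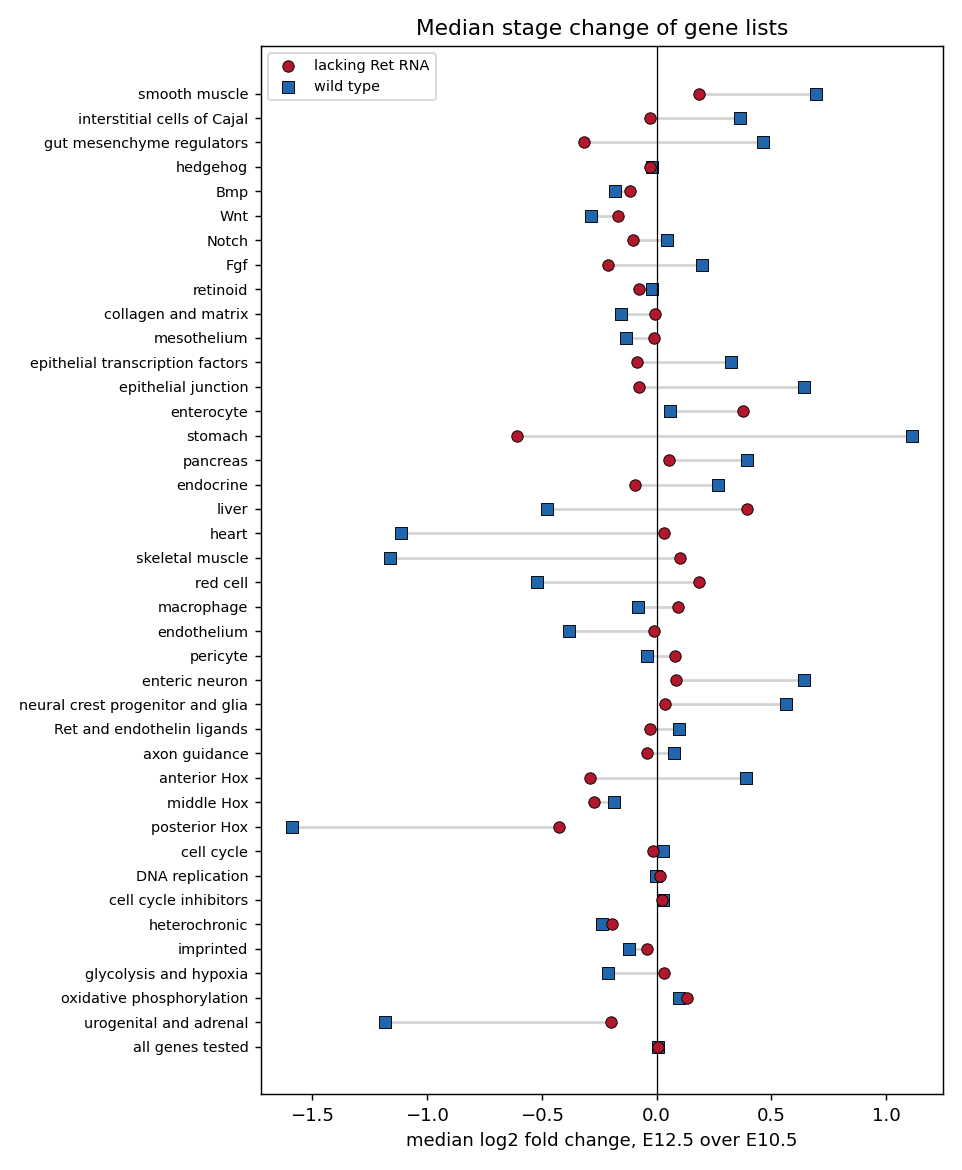
Median log2 fold change, E12.5 over E10.5, of the 39 gene lists with at least 8 tested members and of all genes tested, in gut lacking Ret RNA (circles) and in wild type (squares). The medians lacking Ret lie between -0.61 (stomach) and 0.40 (liver), and those in wild type between -1.59 (posterior Hox) and 1.11 (stomach).

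Peg3 and Zim1 are neighbouring imprinted genes on chromosome 7 that encode zinc finger proteins, Peg3 being expressed from the paternal and Zim1 from the maternal allele. Both rose lacking Ret, and both fell in wild type. The 250 bases before the RefSeq start of each (GRCm38.p6, minus strand, chr7:6730420-6730669 for Peg3 and chr7:6696433-6696682 for Zim1) are shown because these neighbours moved together, with CG dinucleotides, where mammalian DNA is methylated, in capitals.
Peg3: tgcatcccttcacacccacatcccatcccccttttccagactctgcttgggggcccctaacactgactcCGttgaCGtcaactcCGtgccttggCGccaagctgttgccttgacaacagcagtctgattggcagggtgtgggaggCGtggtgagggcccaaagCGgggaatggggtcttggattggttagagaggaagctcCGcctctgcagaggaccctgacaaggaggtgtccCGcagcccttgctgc
Zim1: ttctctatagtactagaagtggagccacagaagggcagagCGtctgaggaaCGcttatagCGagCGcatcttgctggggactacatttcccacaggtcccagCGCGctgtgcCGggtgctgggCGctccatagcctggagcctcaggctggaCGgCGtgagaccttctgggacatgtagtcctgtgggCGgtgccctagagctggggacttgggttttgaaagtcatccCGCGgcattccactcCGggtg
They hold 8 and 14 CG dinucleotides, and 43% and 29.4% of 32851 mouse promoters of this length hold at least as many. Neither holds the letters GCCATNTT, the core motif of the zinc finger factor YY1, on either strand, which 3.91% of those promoters do. Bases beyond this stretch were not searched, so sites elsewhere in either gene are not covered.

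Peg3 was 82.8, 85.3, 84.6, 91.8 and 75.9 FPKM at E12.5 and 60.1, 65.2 and 42.7 FPKM at E10.5, with no overlap (0.60, SE 0.12, adjusted p = 0.0289). Zim1 was 11.5, 18.1, 15.8, 14.2 and 11.7 FPKM against 8.04, 9.43 and 5.14 FPKM (0.85, SE 0.19, adjusted p = 0.0359). In wild type Peg3 held 44.2 to 104 FPKM at E12.5 and 110 to 212 FPKM at E10.5 and Zim1 4.67 to 17.2 FPKM and 19.6 to 29.0 FPKM. The difference of the stage changes was 1.55 for Peg3 (SE 0.33, adjusted p = 0.0390) and 1.87 for Zim1 (SE 0.40, adjusted p = 0.0394). Nnat, an imprinted proteolipid gene, fell to 360 ± 44.8 FPKM at E12.5, against 487 ± 31.8 FPKM at E10.5 (-0.44, adjusted p = 0.0388). Of 21 tested imprinted genes 2 rose and 1 fell, beside 2.34% and 5.16% of all genes, with a median of -0.04. Of the 3 calls 0 remained without E10.5 male 1 or E12.5 male 3, 2 without E10.5 male 2 or E12.5 female 1, and 1 without each of the other 4 libraries. The Peg3 and Zim1 differences ended without any 1 of the E10.5 libraries lacking Ret, E12.5 females 2 and 3 and male 1 lacking Ret, wild-type E10.5 females, and wild-type E12.5 females 1 and 2, male 1 and male 3; that of Peg3 also ended without E12.5 female 1 lacking Ret.

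For growth and developmental timing the same shares of all genes apply. Of 13 heterochronic genes, which set the timing of developmental fates, 3 fell and 0 rose (median -0.20): Mycn, a growth-promoting transcription factor (16.1 ± 0.686 FPKM at E12.5 and 18.7 ± 0.371 FPKM at E10.5, -0.21, adjusted p = 0.0382), the RNA-binding protein gene Igf2bp2 (-0.29, adjusted p = 0.0456) and Sall4, a factor of embryonic progenitors (-0.42, adjusted p = 0.0471). Of 23 cell cycle genes 1 fell, the transcription factor E2f1 (-0.33, adjusted p = 0.0457), and of 24 DNA replication genes 0 changed, with medians of -0.02 and 0.01. Vegfa, which stimulates vessel growth, fell by 0.28 (adjusted p = 0.0296). Of 30 oxidative phosphorylation genes 2 rose and 0 fell, Cox6c and Uqcrc2 of respiratory complexes (0.29 and 0.21, adjusted p = 0.0415 and 0.0494). Their median was 0.13, against 0.01 over all genes, and 10 of the 30 were higher in every E12.5 library than in every E10.5 library (8.09% of all genes). Scaled to a common median 7 of them were called higher, and scaled to TPM 1. Of the 7 calls 0 remained without E10.5 male 1, E10.5 male 3, E12.5 female 1, E12.5 male 1 or E12.5 male 3, 1 without E10.5 male 2 or E12.5 female 3 and 2 without E12.5 female 2.

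Ligands and receptors of the Ret pathway and neural genes were examined next, beside the 5.16% of all genes called lower and the 2.34% called higher. Gdnf, the Ret ligand, was 12.3, 7.78, 7.57, 8.68 and 12.3 FPKM at E12.5 and 10.2, 10.9 and 14.46 FPKM at E10.5 lacking Ret (-0.28, adjusted p = 0.389), and its co-receptor Gfra1 28.1, 13.4, 12.8, 23.2 and 32.6 FPKM against 20.2, 22.7 and 24.97 FPKM (-0.12, adjusted p = 0.839). Ece1, the enzyme that activates endothelins, fell to 27.5 ± 1.75 FPKM at E12.5, against 34.8 ± 2.79 FPKM at E10.5 (-0.33, adjusted p = 0.0300), and was the 1 call among 12 genes of the Ret and endothelin list. Nrtn, Artn, Edn1, Edn3, Ednra, Gfra2, Gfra3 and Gfra4 gave adjusted p of 0.418 or more, and Ednrb gave 0.43 (adjusted p = 0.159). Of 30 neuronal genes 1 fell, Tagln3, a calponin family gene of neurons, at 6.74, 5.74, 5.91, 6.45 and 6.28 FPKM at E12.5 and 8.31, 8.04 and 7.78 FPKM at E10.5 (-0.33, adjusted p = 0.0208). It rose in wild type, with a difference of -0.98 (adjusted p = 0.0237). Of 12 neural crest and glia genes 0 were called, and of 20 axon guidance genes 1 fell, the ephrin Efna5 (-0.25, adjusted p = 0.0363). Of these 3 calls 0 remained without E10.5 male 1, E10.5 male 3 or E12.5 male 3, 1 without E10.5 male 2 and 2 without E12.5 female 1, female 3 or male 1. The Tagln3 difference ended without E10.5 male 1 or 3 or E12.5 male 1 lacking Ret and without wild-type E12.5 females 1 and 2 or male 1.

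Among lists of other cell types, 0 of 22 endothelial, 0 of 16 macrophage, 0 of 32 matrix and 0 of 16 red cell genes were called. Of 8 pericyte genes 1 fell, Notch3, beside 5.16% of all genes. Globins reached no call either, and closely related copies share reads. Hbb-y, the embryonic beta-like globin, averaged 2416 ± 505 and 2511 ± 651 FPKM at E12.5 and E10.5, and Hbb-b1, an adult beta globin, 461 ± 470 and 34.9 ± 18.2 FPKM (adjusted p = 0.0510), with the highest values of 718 and 1170 FPKM in E12.5 females 2 and 3. Hba-a2, an adult alpha globin with 2 entries, averaged 257 ± 132 and 182 ± 87.2 FPKM at E12.5 and 547 ± 101 and 386 ± 63.7 FPKM at E10.5. The stages did not overlap for either entry (-1.21 and -1.19, adjusted p = 0.0720 and 0.0638).

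Several genes on chromosome 4 were chosen after their values were seen. Zfp534, a zinc finger gene, was 0.352, 0.726, 0.490, 0.422 and 0.381 FPKM at E12.5 and 4.07, 3.69 and 3.82 FPKM at E10.5 lacking Ret, against 0.219 to 0.469 FPKM and 0.276 to 0.614 FPKM in wild type. Only the 3 E10.5 libraries lacking Ret were above 1 FPKM among these groups (stage change -1.73, SE 0.10, adjusted p = 0.000653; difference -1.62, adjusted p = 5.5e-05). Masp2, a protease of the complement system, had the same pattern, at 0.522 ± 0.362 FPKM at E12.5 and 2.62 ± 0.663 FPKM at E10.5 lacking Ret (-1.27). The predicted genes Gm13139, Gm13238 and Znf41-ps, on the same chromosome, were called higher, and related copies of such genes share reads. The calls of Clcn6, Gm13139, Gm13238 and Znf41-ps ended without E10.5 male 1, and those of Zfp534, Masp2 and Gm13154 could not be tested without any 1 of the E10.5 libraries, since fewer than 3 libraries then reached 1 FPKM. These 3 genes passed the filter on low values only through the E10.5 libraries, where they are high. Without E10.5 male 3 the calls of Gm13139, Gm13238 and Znf41-ps ended too. With labelled males alone, Zfp534 and BC002163 were the 2 genes called. BC002163, a name with 2 entries whose chromosome 16 entry was chosen after its values were seen, was 27.9, 48.2, 50.8, 47.0 and 44.3 FPKM at E12.5 and 5.61, 5.13 and 5.82 FPKM at E10.5 (2.75, adjusted p = 0.000653), and it rose in wild type as well (2.43, adjusted p = 3.67e-05).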

How the data were processed

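FPKM values per gene and library were deposited by the authors with an interval and a status flag, per the file headers; TopHat2, Cufflinks, Cuffdiff, Picard and the mm10 genome are named by the submitters' processing notes, without versions. Per the labels, RNA was selected with oligo dT beads. Depth was estimated from the interval widths and covers counting error only. Genes that reached 1 FPKM in 3 or more libraries, with an OK status in all, were tested with limma 3.58.1 (R 4.3.3) on log2(FPKM + 1), a scale that understates the change of low genes, with a mean-variance trend; tests were two-sided with Benjamini-Hochberg adjustment, and a gene was called at an adjusted p under 0.05. For 319 genes the status was not OK. The stage comparison used the 8 libraries. The wild-type change and the difference came from 1 fit of 4 group means, with wild-type pairs averaged where their spread was at most 1.2 times counting noise, a limit set after the data were seen. Members, lists and named genes were chosen with earlier results of these data known. Named genes were the 10 largest rises and falls at 5 FPKM or more without overlap, up to 6 called members of each list (the 2 most abundant where fewer than 2 were called), all globins and all Ret and endothelin genes, and up to 8 differences each way. Some list members are not reported here and are left out of list counts. The fit was tested on simulated data. Alternatives were other pseudocounts, filters, scalings, sex terms, a replicate block and leaving out each library. Tables were made with pandas 2.3.3 and numpy 2.4.6, and plots with matplotlib 3.10.9, in Python 3.11.15.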

Additional observations from a re-analysis of the deposited data

Results flagged for a closer look

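The difference of the stage changes, lacking Ret minus wild type on the log2(FPKM + 1) scale, passed an adjusted p under 0.05 in limma for these named genes. It was positive for Zbed6 (2.16), Mib1 (1.16), Akr1e1 (0.95), Xpo4 (1.12), Zim1 (1.87), Eif2c2 (0.98), N4bp2 (1.04), Cbl (1.62), Peg3 (1.55), D830031N03Rik (1.38) and Znf41-ps (0.67). It was also positive for Mme, a membrane protease (2.46), Alx1, a homeobox factor of mesenchyme (2.13), and Calb1, a calcium-binding protein (1.82), all 3 of which fell in wild type. Alx1 and Calb1 passed the filter on low values through wild-type E10.5, where they are high, and were at most 1.27 and 0.711 FPKM lacking Ret, so their differences restate the wild-type fall. It was negative for Fxyd3 (-2.003), Tspan8 (-1.84), Ihh (-1.70), Olfr1372-ps1 (-1.69), Pdlim3 (-1.65), Zfp534 (-1.62), Ugt2b34 (-1.59), Sec1 (-1.58), Foxf2 (-1.53), Klf5 (-1.52), Foxl1 (-1.44), Foxa1 (-1.41) and Masp2 (-1.29). It was negative too for Dll1 (-1.22), Isl2, a homeobox factor of motor neurons (-1.21), Epcam (-1.11), Tagln3 (-0.98), Gli1 (-0.96), Gm13154 (-0.88), Hoxb3 (-0.86), Gm13051 (-0.79), Hand2 (-0.68) and Clcn6 (-0.66). Zfp534, Masp2 and Gm13154 passed the stage filter only through E10.5 libraries lacking Ret, where they are high, and their differences rest on those values. Among 8 rises with a called difference, 1 remained without E10.5 male 1 or 3 or E12.5 male 1 lacking Ret. Leaving out wild-type E12.5 females 1 and 2 or male 1 kept 1, and leaving out male 3 kept 2.

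Single libraries stood far from the other 4 at E12.5 for 6 genes, and chance does this in about 1 in 20 groups. They were Akr1e1 in female 2 (15.8 FPKM, others 14.6 to 14.9), Slc1a5 in male 1 (13.9, others 10.2 to 10.7), Dll1 in male 3 (5.71, others 3.54 to 3.90), Spry1 in female 2 (8.77, others 9.71 to 10.04), Sall4 in female 1 (4.24, others 3.31 to 3.55) and BC002163 in female 1 (27.9, others 44.3 to 50.8). Xist, outside the comparison, was 66.1 FPKM in E10.5 male 1, against its label.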

How the results depend on the processing

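The stage count of 981 genes was 636 with no filter on low values, 4 with labelled sex as a term, 324 with sex read from Xist as a term (added after seeing the data) and 2 with labelled males only. It ranged from 5 to 875 without single libraries. Under the other alternatives it lay within 1.5 times. The difference count of 139 was 64 at 5 FPKM or more, 2 with labelled sex, 69 with the Xist term, 1 with labelled males only and 431 with every wild-type library counted, and ranged from 2 to 208 without single lacking-Ret libraries or single wild-type libraries, and from 11 to 273 without averaged wild-type pairs. The wild-type count of 832 was 522 at 5 FPKM or more and 1865 with every wild-type library counted, and ranged from 487 to 856 without single samples. With the replicate block the 3 counts were 1202, 83 and 705. Same-numbered libraries had correlations of -0.30 to 0.39 between their deviations, and not every library correlated best with its own number, so they share only a number. No direction of a called named gene reversed. Of 58 called named stage genes, 704 of 1136 values under alternatives kept the call and 432 lost it, and of 37 named differences 664 of 1052 kept it and 388 lost it. The cause of these shifts was not tested. Among named stage calls, those of E2f1, Fgfr1, Fzd2, Rxra, Sall4 and Spry1 ended with median scaling, those of Gm13238, Hist1h2an, Hoxb8 and Uqcrc2 with TPM scaling, and those of Hoxa5, Hoxa11 and Osr1 with both. The differences of Gli1, Hoxb3, Isl2 and Mme ended with TPM scaling. Depth was lower at E10.5, and its part in low genes was not tested.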
